A study of Arabidopsis thaliana with 2 samples.

Results

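ERF and DREB proteins are plant transcription factors that carry a single AP2/ERF DNA-binding domain, and 58 Arabidopsis thaliana genes of this kind were examined here out of 33602 loci counted. They were taken by locus identifier and cover GCC-box activators, EAR-motif repressors, meristem factors, stress and regeneration ERFs, oxygen-sensing ERFs, cytokinin response factors, RAP2.4 (WIND1) and its relatives, DREB factors and SHINE factors. CBF1 to CBF3 were left out of the set. Measured here means at least 10 counts in 1 or more libraries, which 51 of the 58 reached. The estradiol library came from first-pair rosette leaf explants of the pER8:3xFlag-NAC1 line in the Col-0 background, cultured on B5 medium with estradiol in DMSO. The control library came from the same tissue and line on B5 medium with DMSO alone. Plants of both were 12 days after sowing, and the treatment time and number of plants per library, not given in the sources used here, stay unknown. Both groups carry the transgene, in which estradiol switches on a Flag-tagged copy of the NAC transcription factor gene NAC1.

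ERF proteins of the activator type bind the GCC box in promoters of defence genes and relay ethylene and jasmonate signals, and repressors with an EAR motif act on similar sites. DREB proteins bind the dehydration-responsive element upstream of cold and drought genes. Several family members are induced within a short time of wounding, and in Arabidopsis WIND1 promotes callus formation at wound sites while ESR1, RAP2.6L and ERF115 act in regeneration of shoots, stem tissue and root tips.

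The libraries held 48350705 gene counts with estradiol and 39799127 in the control, 1 library per group, so no test was possible and every difference is between 2 libraries. NAC1 had 28380 counts with estradiol against 466 in the control, 49.4-fold higher (45.1 to 54.3). Here and below, the range in parentheses after a ratio is its exact 95% counting interval, which covers counting error only. Throughout, "higher" as a call means that this whole interval exceeds 2, and "lower" that it lies wholly under 0.5. The 5 leaf mesophyll markers summed to 4415 CPM (counts scaled to the TMM-adjusted library size) with estradiol and 6433 CPM in the control. CAB2 and CAB3 among them were lower, and counts shared between similar copies were not checked for the markers. RBCS1A, RBCS3B and PSBO1 were not called, with ratios of 0.754, 0.733 and 0.711. The 6 root markers and 2 seed markers had at most 6 counts each in either library. Of 3 flower markers, PI had 17 counts in both libraries and AG 14 counts with estradiol against 7 in the control. With bulk leaf RNA, fewer cells of a type and less RNA per cell cannot be told apart. The part of the leaf marker difference in the values below was not tested.

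More of the measured ERF and DREB genes were lower than higher with estradiol. By the size rule 12 of 51 were lower and 3 higher, against a background of 4.64% lower and 5.38% higher among 20274 measured genes. The members were chosen with earlier results of these data known. The 12 lower genes were ORA47, tny, ERF5, SHN3, RRTF1, ERF6, DREB2A, AT1G22190, ERF11, ERF105, ERF104 and ERF4, and the 3 higher ones ORA59, AT5G43410 and RAP2.6. The median log2 ratio of the 51 was -0.54, beside 0.01 for all measured genes, and 32 of them lay below 0. The 2 members at 0 in 1 library lay above the median also with the 0 set to a floor of 3 counts, so the median could not change. Together the 58 genes took 0.122% of the counts with estradiol and 0.176% in the control. Of the 51, 7 reached 10 counts in only 1 library and could pass the minimum only through the library where they were high. Among the 44 members with 10 counts in both libraries 11 were lower and 1, ORA59, was higher, beside 4.22% lower and 4.12% higher among 19202 genes kept the same way.

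**Figure D1:**
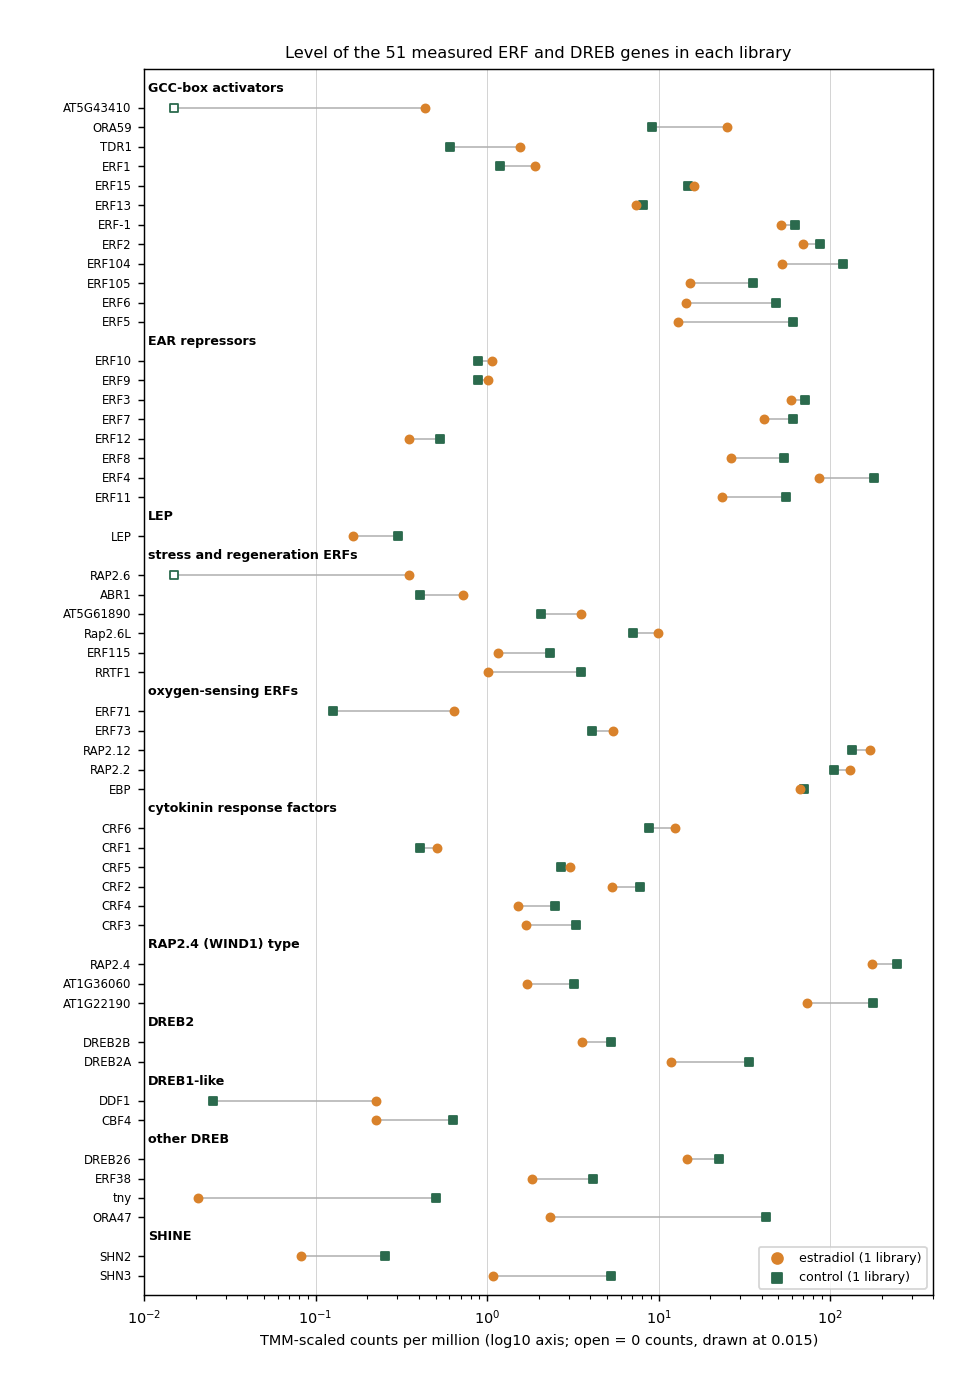
TMM-scaled CPM on a log10 axis for the 51 measured ERF and DREB genes, by role, with circles for the estradiol library and squares for the control library. Open symbols are 0 counts. The widest gaps among well-expressed genes are at ORA47, with 2.32 CPM in the estradiol library and 42.5 CPM in the control library, and at ERF5, with 12.9 CPM in the estradiol library and 60.6 CPM in the control library.

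Abundant members made up most of the lower calls. In a split at a mean of 20 CPM over both libraries, which was chosen after the values were seen, 9 of the 18 members above it were lower and 0 higher. Among all 10205 measured genes above that level 2.87% were lower and 3.28% higher. The 18 members summed to 1084 CPM with estradiol and 1649 CPM in the control. Their median log2 ratio was -1.04, beside 0.05 for all measured genes above that level. Of the 33 measured members under 20 CPM 3 were lower and 3 higher, 9.09% each, beside 6.43% lower and 7.5% higher among all 10069 measured genes under that level. Those 33 had a median log2 ratio of 0.12, beside -0.07 for all measured genes under that level. The 7 members not measured also lie under it. Larger counts give narrower intervals, so a difference of the same size is called more readily in abundant genes.

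The order of the members by level per transcript length also differed between libraries. In the estradiol library RAP2.12 was first at 89.7 CPM per kilobase, followed by RAP2.4 at 81.9, ERF4 at 76.1 and RAP2.2 at 71.9 CPM per kilobase. In the control library ERF4 was first at 159 CPM per kilobase, followed by RAP2.4 at 116, AT1G22190 at 109 and ERF104 at 86.2 CPM per kilobase. ORA47 held place 31 of the 58 with estradiol and place 16 in the control. With 1 library per group the spread of these levels is unknown, so close neighbours in either order cannot be separated.

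**Figure D2:**
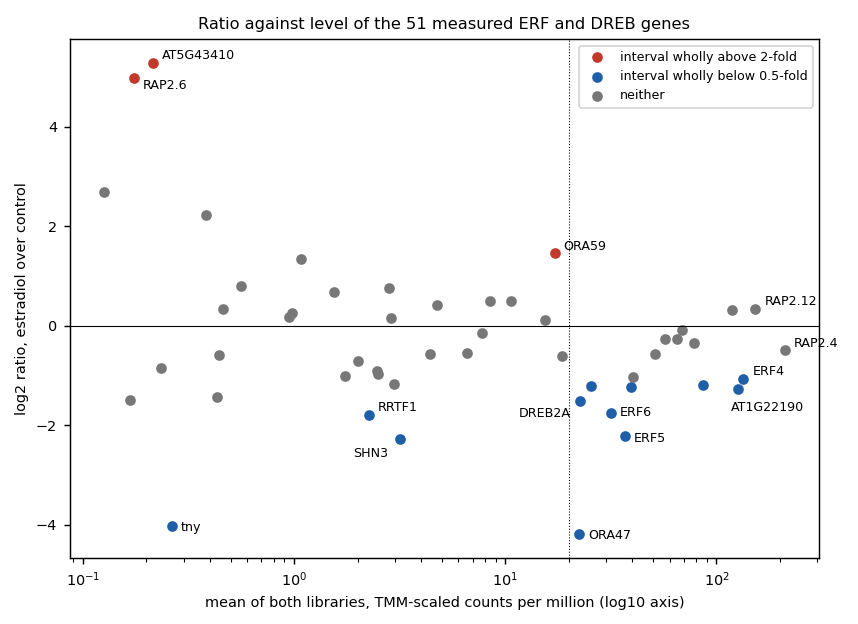
Log2 ratio of estradiol over control (vertical axis) against the mean TMM-scaled CPM of both libraries (log10 axis) for the 51 measured genes, coloured by the size rule, with a dotted line at 20 CPM. Of 18 genes right of the line 9 are called lower and 0 higher. The ratios drawn for AT5G43410 and RAP2.6, at 0 counts in the control, depend on the prior count of 0.5.

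Among the 13 GCC-box activators the calls went both ways, with 2 of 12 measured genes higher and 4 lower. ORA59, an activator of jasmonate and ethylene defence genes, had 1221 counts with estradiol and 361 in the control, 2.74-fold higher (2.44 to 3.10). It was the single member called higher that had more than 21 counts. AT5G43410, annotated as an ERF of subfamily B-3, had 21 counts with estradiol and 0 in the control. With the 0 set to a floor of 3 counts it was 5.68-fold higher, and the lower limit of its counting interval was 4.23. TDR1 (ERF98), named as a regulator of defence, had 76 counts with estradiol and 24 in the control, a ratio of 2.57 (1.61 to 4.25) that was not called. ERF1 (ERF1B), a direct target of the ethylene factor EIN3, had 93 counts with estradiol and 47 in the control, a ratio of 1.61 (1.12 to 2.33) and also not called. All 4 of these genes had more counts with estradiol, and 3 of them were under 2 CPM in both libraries.

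The 4 lower activators were 2 pairs of close relatives. ERF5 and ERF6 act together in chitin responses and in growth restriction under osmotic stress. ERF5 had 630 counts with estradiol and 2394 in the control, 4.68-fold lower (4.29 to 5.12). ERF6 had 705 counts with estradiol and 1927 in the control, 3.37-fold lower (3.09 to 3.68). ERF104, a substrate of the kinase MPK6 in flagellin responses, had 2547 counts with estradiol and 4733 in the control, 2.29-fold lower (2.18 to 2.4). ERF105, its nearest relative, had 744 counts with estradiol and 1401 in the control, 2.32-fold lower (2.1 to 2.54).

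ERF-1 (ERF1A) and ERF2, which activate GCC-box genes, were not called. ERF-1 had 2516 counts with estradiol and 2458 in the control, and ERF2 had 3381 with estradiol and 3475 in the control, with log2 ratios of -0.27 and -0.34. ERF13 had 359 counts with estradiol and 321 in the control, and ERF15 had 784 with estradiol and 584 in the control. Their log2 ratios were -0.14 and 0.12. ERF14 had 0 counts in both libraries, which allows up to 0.0616 CPM with estradiol and 0.0759 CPM in the control (floor of 3 counts per library).

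Of the activators and repressors, 4 pairs lie next to or close to each other. ERF6 and ERF-1 are neighbours on the chromosome by the reference's gene order, with log2 ratios of -1.75 and -0.27. ERF2 and ERF5 have 1 gene between them and log2 ratios of -0.34 and -2.23. In each of these pairs the gene of the ERF5 and ERF6 type was lower and the gene of the ERF-1 and ERF2 type was not called. ERF12 and ERF11 are neighbours with log2 ratios of -0.59 and -1.24, and TDR1 and ERF1 are neighbours at 1.35 and 0.68. The intervals given for the ratios of TDR1 and ERF1 overlap, and both members of each of these last pairs lay on the same side of 0.

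Of the 8 EAR-motif repressors, which lower transcription from GCC-box promoters, 2 were lower and 0 higher. ERF4 had 4231 counts with estradiol and 7160 in the control, 2.09-fold lower (2.01 to 2.17). Its interval passes the threshold by a small margin, and with libraries scaled by total counts ERF4 was not called. ERF11, a repressor of ethylene synthesis genes, had 1146 counts with estradiol and 2195 in the control, 2.36-fold lower (2.20 to 2.54). ERF8 lay just outside the rule, at 1293 counts with estradiol against 2133 in the control and a ratio of 0.492 (0.459 to 0.527). ERF7, a repressor in abscisic acid responses, had 1998 counts with estradiol and 2417 in the control, and ERF3 had 2884 with estradiol and 2808 in the control, with log2 ratios of -0.58 and -0.26. ERF9, ERF10 and ERF12 had 17 to 52 counts in either library and log2 ratios from -0.59 to 0.27. Summed over the 8 genes, the repressors had 239.7 CPM with estradiol and 425.2 CPM in the control, and the 13 activators 268.5 CPM with estradiol and 448.5 CPM in the control.

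Of the 4 meristem factors related to the repressors, only LEP (LEAFY PETIOLE) was measured. LEP had 8 counts with estradiol and 12 in the control, a ratio of 0.541 (0.192 to 1.44). ESR1 (DORNROSCHEN) and DRNL (ESR2), which promote shoot regeneration, had 0 counts in both libraries, and PUCHI, a factor of lateral root primordia, had 0 counts with estradiol and 1 in the control. No expression of ESR1 or DRNL was detectable at this depth, and PUCHI was under the count minimum.

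Stress and regeneration ERFs were split, with 1 of 6 measured genes higher and 1 lower. RRTF1 (ERF109), a wound- and redox-responsive factor, had 49 counts with estradiol and 139 in the control, 3.50-fold lower (2.51 to 4.95). RAP2.6, a stress- and abscisic acid-responsive factor, had 17 counts with estradiol and 0 in the control. With the 0 set to a floor of 3 counts it was 4.60-fold higher, and the lower limit of its counting interval was 3.35. ERF115, which drives stem cell division and regeneration in the root, had 56 counts with estradiol and 92 in the control, a ratio of 0.494 (0.348 to 0.696) that was not called. AT5G61890, annotated in the same subfamily B-4, had 172 counts with estradiol and 82 in the control, a ratio of 1.70 (1.3 to 2.24). Rap2.6L, which acts in the reunion of cut stem tissue, had 484 counts with estradiol and 279 in the control, a ratio of 1.41 (1.21 to 1.64). ABR1, a repressor of abscisic acid responses, had 35 counts with estradiol and 16 in the control, a ratio of 1.78 (0.957 to 3.43). None of these last 4 genes was called.

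The 5 oxygen-sensing ERFs, whose proteins are degraded when oxygen is present and which switch on hypoxia genes when it is short, had no call in either direction. RAP2.12 had 8329 counts with estradiol and 5319 in the control, and RAP2.2 had 6369 with estradiol and 4154 in the control, with ratios of 1.27 (1.23 to 1.32) and 1.24 (1.2 to 1.29). EBP (RAP2.3) had 3251 counts with estradiol and 2802 in the control, a ratio of 0.942 (0.895 to 0.991). ERF73 (HRE1) had 265 counts with estradiol and 161 in the control, a ratio of 1.34 (1.09 to 1.63). ERF71 (HRE2) had 31 counts with estradiol and 5 in the control, a ratio of 5.03 (1.94 to 16.6) whose lower limit missed the threshold. Summed over the 5 genes the level was 374.7 CPM with estradiol and 314.8 CPM in the control.

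The 6 cytokinin response factors, which act in cytokinin-dependent leaf and embryo development, also had no call. CRF6, known for delaying leaf senescence, had 609 counts with estradiol and 350 in the control, a ratio of 1.41 (1.24 to 1.62). CRF3 had 82 counts with estradiol and 131 in the control, a ratio of 0.508 (0.381 to 0.675). CRF2 had 262 counts with estradiol and 309 in the control, and CRF4 had 74 with estradiol and 99 in the control. CRF5 had 148 counts with estradiol and 107 in the control, and CRF1 had 25 with estradiol and 16 in the control. Log2 ratios of the 6 genes ran from -0.97 to 0.50, with 3 above 0 and 3 below.

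RAP2.4 (WIND1), which promotes dedifferentiation at wounds, was among the most abundant members in both libraries and was not called. It had 8516 counts with estradiol and 9750 in the control, a ratio of 0.709 (0.688 to 0.730). Its relative AT1G22190, which shares the synonym RAP2.4 in the reference, had 3582 counts with estradiol and 7050 in the control, 2.43-fold lower (2.33 to 2.53). AT1G36060 had 83 counts with estradiol and 127 in the control, a ratio of 0.530 (0.397 to 0.705) that was not called. AT5G65130 had 8 counts with estradiol and 7 in the control and was the member closest under the count minimum. Summed over the 4 genes the level was 250.3 CPM with estradiol and 428.5 CPM in the control.

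DREB factors held the member with the lowest ratio among those with 10 counts in both libraries. ORA47, a wound-induced activator of jasmonate synthesis genes, had 113 counts with estradiol and 1680 in the control, 18.3-fold lower (15.1 to 22.4). Of all measured genes 0.242% had a lower log2 ratio than ORA47. The gene tny (TINY), which links growth and stress responses, had 1 count with estradiol and 20 in the control, a ratio of 0.0406 (0.000979 to 0.254). ERF38, annotated with a possible role in secondary wall metabolism, had 89 counts with estradiol and 163 in the control, a ratio of 0.443 (0.338 to 0.577) that was not called. DREB26 had 715 counts with estradiol and 890 in the control, a log2 ratio of -0.62.

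DREB2A, an activator of drought and heat genes, had 575 counts with estradiol and 1326 in the control, 2.84-fold lower (2.57 to 3.14). DREB2B, its close relative, had 174 counts with estradiol and 208 in the control, a ratio of 0.679 (0.552 to 0.834). Of the 3 members most like the CBF factors, CBF4 had 11 counts with estradiol and 25 in the control, a ratio of 0.357 (0.159 to 0.752). DDF1, which lowers gibberellin levels, had 11 counts with estradiol and 1 in the control, a ratio of 8.93 (1.3 to 384). The gene ddf2 had 2 counts with estradiol and 0 in the control, under the floor. None of these 3 was called, and they were at or under 25 counts in both libraries. The CBF1, CBF2 and DREB1A (CBF3) genes outside the set had log2 ratios of -4.35, -4.29 and -2.58 and were lower.

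SHINE factors activate genes of cuticle formation. SHN3 had 53 counts with estradiol and 209 in the control, 4.86-fold lower (3.58 to 6.70). SHN2 had 4 counts with estradiol and 10 in the control, a ratio of 0.325 (0.0743 to 1.13) that was not called. SHN1 (WIN1) had 0 counts in both libraries.

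**Figure D3:**
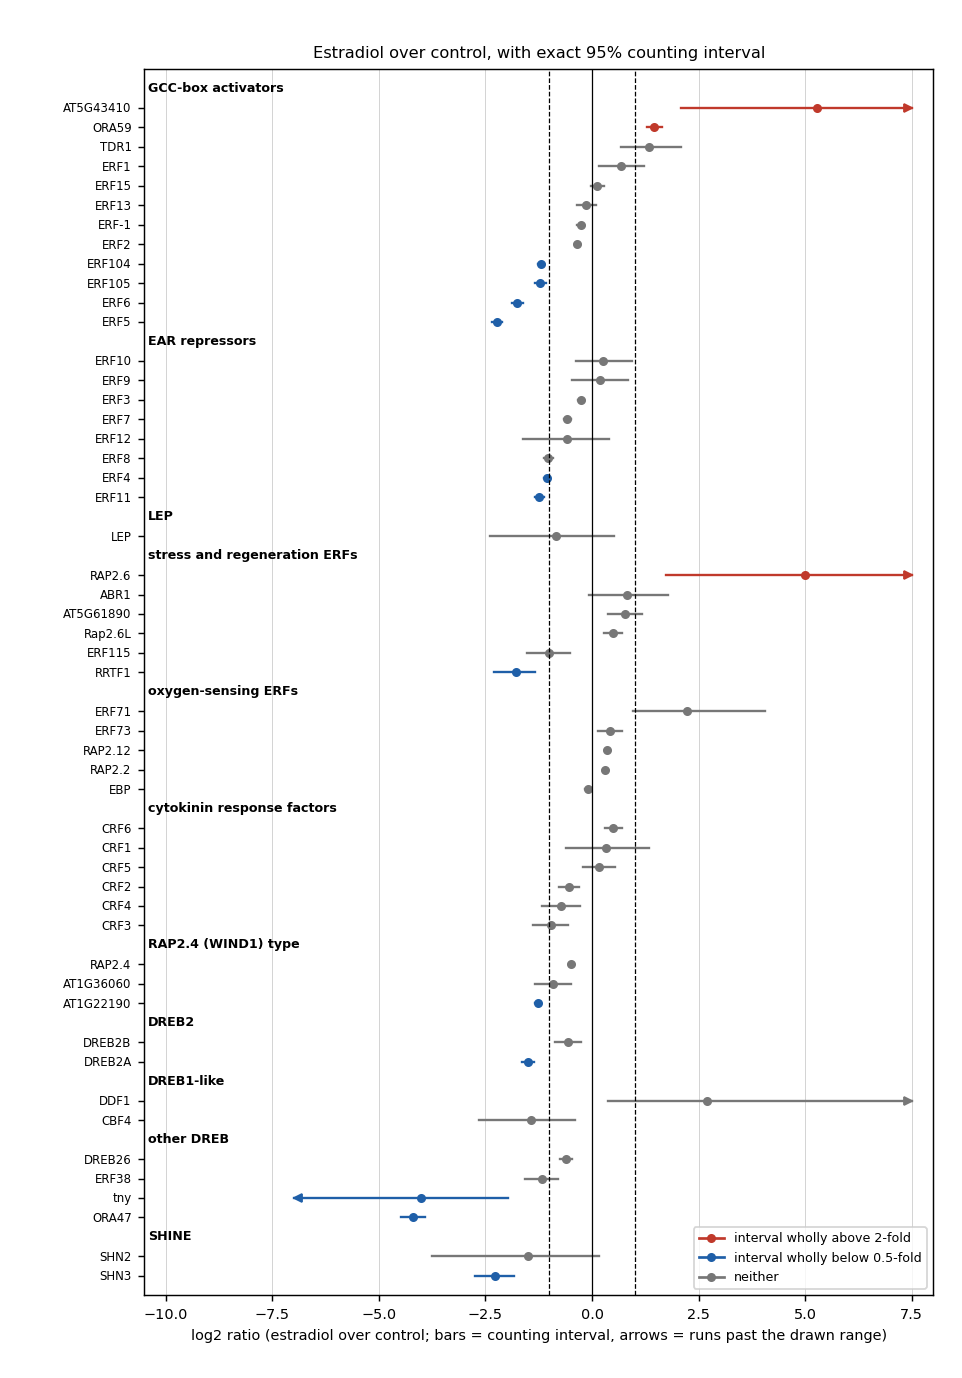
Log2 ratio of estradiol over control for the 51 measured genes by role, with points for the ratio (prior count of 0.5), bars for the exact 95% counting interval and dashed lines at 2-fold and 0.5-fold. The intervals of ORA47, tny, ERF5 and SHN3 lie farthest to the left, and of the genes wholly right of 2-fold only ORA59 had counts in both libraries.

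Counts of some members may be affected by other loci. In the reference 9 members overlap an annotated gene on the opposite strand, among them the lower genes ORA47, DREB2A, ERF105 and RRTF1, and whether the counting used strand, not given in the sources used here, could matter for them. The partner of ORA47 had 2 counts with estradiol and 7 in the control, and that of DREB2A 21 in both libraries. The partner of ERF105 had 1845 counts with estradiol and 1726 in the control, and AT4G34412 beside RRTF1 had 398 with estradiol and 241 in the control. Some members not called have partners with far more counts than their own. For ERF73 the partner P40 had 15586 counts with estradiol and 11668 in the control. For ABR1 the partner RPN5B had 1386 with estradiol and 878 in the control, and for DREB2B the partner TBL32 had 1270 with estradiol and 700 in the control. RAP2.12 has a similar copy, AT1G53887, with 231 counts with estradiol and 206 in the control. Copies were searched at 90% identity over 100 bases.

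The rest of the family, taken as the 62 further loci that the reference describes as ERF/AP2 factors, was counted beside the members. Of 46 measured genes 9 were lower and 3 higher, or 19.6% and 6.52%, beside 23.5% and 5.88% of the measured members. The median log2 ratio was -0.23 in the rest of the family and -0.54 in the members. CBF1, CBF2 and DREB1A were 3 of the 9 lower genes. The 3 higher genes, DREB19, RAP2.9 and AT1G77640, are annotated in DREB subfamilies. Their ratios were 19.7 (7.44 to 73.7), 3.05 (2.64 to 3.52) and 3.48 (2.03 to 6.30). The difference between the sets was not tested.

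Gene lists tied to the roles of the members were read beside them. For every list the background is 4.64% lower and 5.38% higher among all measured genes. The lists, like the members, were chosen with earlier results of these data known, so their shares beside the background are description only. Among 5 measured GCC-box defence genes 4 were higher and 0 lower (median log2 ratio 1.65). PDF1.2b, a defensin gene activated by ORA59 and ERF1, had 2818 counts with estradiol and 179 in the control, 12.8-fold higher (11 to 14.9). Similar copies were searched for the members only, so counts shared between defensin genes were not checked. The chitinase gene HCHIB was 3.44-fold higher (3.07 to 3.87), PR4 3.14-fold (3.07 to 3.21) and PDF1.2 3.09-fold (2.95 to 3.24). These defence genes and ORA59 were higher in the same library in which ERF5, ERF6, ERF104 and ERF105 were lower. None of 10 ethylene receptor and signalling genes was called, with a median of 0.05 and log2 ratios of 0.55 for CTR1, -0.42 for EBF1, 0.47 for EIN4 and 0.36 for ETR1.

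Among 10 measured cold and dehydration genes, the known DREB targets, 8 were lower and 0 higher (median -1.60). The DREB factors CBF1, CBF2 and DREB1A, outside the set, were also lower, while DREB19, RAP2.9 and AT1G77640, also outside it, were higher. Which DREB factor, member or not, acts on the cold and dehydration genes was not tested. COR15B had 2421 counts with estradiol and 9538 in the control, 4.85-fold lower (4.64 to 5.08). GolS3, a galactinol synthase gene, had 0 counts with estradiol and 15 in the control. With the 0 set to a floor of 3 counts it was 6.16-fold lower, and its counting interval began at 4.42-fold lower. COR15A and LTI78 were 4.29-fold (4.17 to 4.43) and 3.78-fold lower (3.65 to 3.90).

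For jasmonate synthesis, the pathway known as the target of ORA47, 0 of 7 measured genes were called, with a median of 0.08. LOX4 had 3418 counts with estradiol and 4583 in the control, a log2 ratio of -0.72. AOC1, AOS and LOX2 had log2 ratios of 0.43, -0.32 and 0.26. The 18.3-fold lower ORA47 stood beside synthesis genes with log2 ratios between -0.72 and 0.43.

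Of 10 measured cutin and wax genes, read beside SHN3, 4 were lower and 0 higher (median -1.35). Log2 ratios were below 0 for 7 of them and above 0 for 3, up to 0.89. Summed over the list, the level was 173.4 CPM with estradiol and 193.3 CPM in the control. The acyl-CoA synthetase gene LACS2 had 601 counts with estradiol and 1593 in the control, 3.27-fold lower (2.97 to 3.59). GPAT6, an acyltransferase gene of cutin synthesis, was 3.32-fold lower (2.42 to 4.61), HTH 2.45-fold (2.19 to 2.74) and AT4G24140 4.72-fold (2.46 to 9.80).

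Hypoxia genes had 0 calls among 6 measured members, as did the oxygen-sensing ERFs. LBD41 had 169 counts with estradiol and 68 in the control, a ratio of 2.02 (1.51 to 2.71), and HB1 had 164 with estradiol and 89 in the control. AT4G33070, a pyruvate decarboxylase gene, and SUS1 had log2 ratios of -0.86 and 0.07. Type-A response regulators, which damp cytokinin signals, held 1 lower gene among 4 measured. That gene was ARR7, with 103 counts with estradiol and 226 in the control, 2.70-fold lower (2.13 to 3.45), while ARR4, RR5 and ARR6 had log2 ratios of 1.06, 0.30 and 0.77.

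Regeneration genes, read beside WIND1, ESR1 and ERF115, held 1 higher and 1 lower gene among 9 measured. Whether these genes act downstream of the 3 factors was not tested. PSK2, a phytosulfokine precursor gene, had 330 counts with estradiol and 58 in the control, 4.62-fold higher (3.48 to 6.21). LBD16, a factor of root founder cells, had 21 counts with estradiol and 118 in the control, 6.92-fold lower (4.33 to 11.6). AIL6 (PLT3) and AIL5 (PLT5) had log2 ratios of -0.70 and -0.58, and CUC2, STM, WUS and LBD29 had at most 2 counts in either library. Of 2 auxin synthesis genes tied to ERF109 (RRTF1), ASA1 had 10667 counts with estradiol and 2794 in the control, 3.10-fold higher (2.97 to 3.23). YUC2, with 35 counts with estradiol and 42 in the control, was not called.

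**Figure D4:**
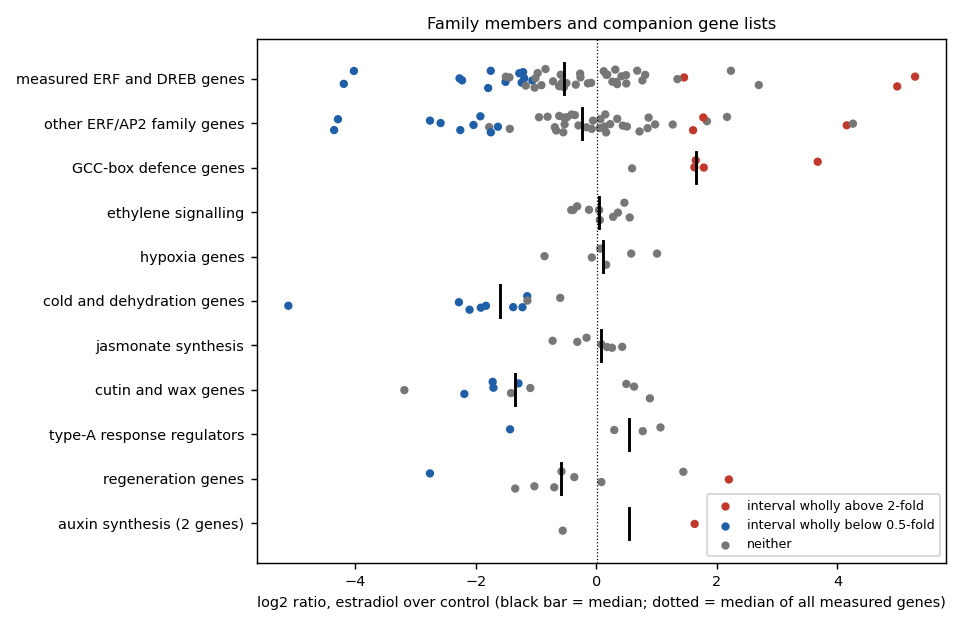
Log2 ratios of estradiol over control (prior count of 0.5) for the measured ERF and DREB genes, the other ERF/AP2 family genes and 9 companion lists, 1 point per gene, coloured by the size rule, with black bars at medians and a dotted line at the median of all measured genes. The GCC-box defence list has a median of 1.65 and the cold and dehydration list one of -1.60, beside -0.54 for the ERF and DREB genes.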

How the data were processed

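For each of the 2 libraries the authors deposited a table of raw counts, whole numbers for 33602 loci plus 5 summary lines. Per the submitters' processing notes FastQC, HTSeq, DESeq and the TAIR10 build were used, with no version stated. Aligner, annotation release and strand setting: not given in the sources used here. Library sizes leave out the 5 summary lines (ambiguous reads 1.91% with estradiol and 2.05% in the control, reads outside features 0.693% with estradiol and 0.742% in the control). The 279 organelle loci are listed at 0.

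Scaling used the TMM method of edgeR 4.0.16, run in R 4.3.3 (factors 1.007 with estradiol, 0.993 in the control). Ratios have exact Clopper-Pearson 95% intervals conditional on the sum of both counts (Python 3.11.15, SciPy 1.17.1). For 10 counts in each library the interval runs from 0.303 to 2.17, for 100 from 0.609 to 1.08 and for 1000 from 0.743 to 0.887. Since reads lacking molecular identifiers may be copies of one molecule, intervals and floors cover counting error only and may be too narrow. A gene was measured with at least 10 counts in 1 or more libraries and called where its whole interval passed 2-fold. Log2 ratios use a prior count of 0.5. With 1 library per group no test could be made.

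Symbols, descriptions and transcript lengths come from the TAIR10.1 annotation, in which all 58 members were found. Because the notes name TAIR10, no coordinates or sequences are printed. Similar copies were searched with BLAST 2.17.0. The members, role groups and 9 companion lists of 71 genes were chosen with earlier results of these data known. By the rule for named genes every member is accounted for, and up to 4 measured genes of each list are named by the interval bound farthest from 1. Genes outside the rule spell out small counts. The alternatives tried were other scalings, including DESeq2 1.42.0 size factors, count minimums, folds, a prior count of 2 and assumed variation between libraries.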

Additional observations from a re-analysis of the deposited data

How the results depend on the processing

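No paired analysis was possible because each group has 1 library. The 12 lower and 3 higher members were the same genes under DESeq2 and upper quartile scaling. Dropping the count minimum could only add calls and added none among the members. The prior count does not enter the calls by the exact interval, so a prior count of 2 could not change them. Under total-count scaling 11 stayed lower, without ERF4. Raising the minimum to 50 counts left 11 of 39 measured members lower and 1, ORA59, higher, beside 4.5% lower and 5.17% higher of all genes. The same members were called with at least 10 counts in both libraries, an alternative chosen after seeing the data, since AT5G43410, RAP2.6 and tny dropped out. With a 1.5-fold threshold 14 members were lower and 5 higher, beside 2009 (9.91%) and 1809 (8.92%) of all measured genes. With a 4-fold threshold 2 members (ERF5 and ORA47) were lower and 1 (AT5G43410) higher. Beside them stood 161 (0.794%) and 468 (2.31%) of all genes, and 4 and 1 companion genes. The variation between libraries cannot be estimated here. Under assumed variation the intervals used a normal approximation on log counts with the prior count of 0.5 added, not the exact method. That approximation is rough for tny, with 1 count with estradiol and 20 in the control. With an assumed coefficient of variation of 0.2 in each library, 4 members (ERF5, ORA47, tny and SHN3) were lower and 1 (AT5G43410) higher. Beside them stood 367 (1.81%) and 641 (3.16%) of all genes, and 5 and 2 companion genes. With a coefficient of 0.4, 2 members (ORA47 and tny) were lower and 0 higher. Beside them stood 117 (0.577%) and 421 (2.08%) of all genes, and 1 and 1 companion genes. ORA59, ERF6, ERF104 and ERF105 were called under neither assumption. The median of the auxin synthesis pair was 1.63 with a minimum of 50 counts, at which only ASA1 was left. No member called higher or lower changed direction under the other scalings. The remaining settings could not change a direction. Depth limits members under about 10 counts, where even a several-fold difference is within the counting interval.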
